A study of Megathyrsus maximus with 33 samples.

Results

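The leaves described here came from plots of Guinea grass (Megathyrsus maximus, also called Panicum maximum), a perennial C4 forage grass, after 50 days of elevated [CO2] and warming applied together (eCeT), and from control plots at ambient [CO2] and temperature (C) on the same occasion, time point B. These are 8 of the 32 RNA-seq libraries of the series, 4 plots of each treatment, chosen by their labels. The eCeT plots received 600 ppm [CO2] and warming set at 2 °C above ambient, and no plot of C received either. The paper's conclusion gives a smaller rise of the canopy temperature. The other libraries at time point B were 4 of warming alone (eT, 2 °C) and 4 of elevated [CO2] alone (eC, 600 ppm), and the same plots had been sampled earlier, after 30 days (time point A). Each library is the youngest fully expanded leaves of 1 plot, pooled, so it averages plants and carries no estimate of the spread within a plot. Plots stood in an open field, and the labels give each a ring number, shared by 1 plot of every treatment and used here as the replicate number. What a ring was in the field is not given in the sources used here. The question of the design is which transcripts differ between leaves grown under both factors and control leaves, and how that difference compares with that under each factor alone.

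Heat shock proteins are chaperones that bind unfolded proteins, and plants make many of them within minutes to hours of warming. MBF1C is a heat-induced transcriptional coactivator, HSP101 dissolves protein aggregates, and HSP21 is a small heat shock protein of the plastid. Flowering Locus T (FT) is a mobile signal of the PEBP family made in leaves, and it is known mainly for promoting flowering, with CONSTANS and its relatives among its regulators. Cinnamoyl-CoA reductase opens the lignin branch of phenylpropanoid metabolism, delta-aminolevulinic acid dehydratase acts early in the synthesis of chlorophyll and heme, and fibrillins are lipid-associated proteins of plastids. All these names are Arabidopsis functions, and for Guinea grass they rest on a sequence match of an assembled transcript.

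From 11252331 to 12838473 reads could be recovered for each eCeT library and from 10895901 to 13363198 for each C library. A transcript of no known name, c78052_g1, took between 9.39% and 37.5% of the reads in eCeT and between 16.3% and 35.2% in C. It was most abundant in eCeT replicate 4 and C replicate 3, and the effective library sizes of these libraries were 0.614 and 0.699 times their reads. The log2 change of c78052_g1 between the groups was -0.09 ± 0.89 (SE, limma, adjusted p = 0.985). In eCeT replicate 4, 5.70% of the transcripts had no read, against 2.19% to 3.07% in the other eCeT libraries and 2.23% to 3.60% in those of C. The 4 leaf photosynthesis transcripts that the study's files name (plastocyanin 1, a photosystem I light harvesting gene and a pair of NDH complex genes) were present in every library, with 54.5, 37.1, 79.2 and 29.0 CPM (reads per 1e6 of effective library size) summed in eCeT replicates 1 to 4, against 81.6, 119, 94.7 and 88.1 in C. The abundant photosynthesis genes that would define leaf tissue are not among the named transcripts, so the tissue label could be checked only this far.

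Of 39208 transcripts tested with limma, 121 (0.309%) were called at an adjusted p under 0.1, 104 of them higher (0.265%) and 17 lower (0.0434%) in eCeT than in C. The transcripts that rose did so by a median of 0.94 on the log2 scale, with a range of 0.50 to 3.53, and 49 of the 104 changed by more than 2-fold. Those that fell had a median of -1.29, and 14 of the 17 changed by more than 2-fold. Over all transcripts the median change was -0.02, and 8.31% changed by more than 2-fold in either direction. Larger changes among the called transcripts follow from their choice by this same difference. The called transcripts had more reads than most: their mean log2 value over the 8 libraries had a median of 4.24 for those that rose and 2.11 for those that fell, against 0.76 for all. In bulk leaf RNA, fewer cells of a type and less RNA per cell cannot be told apart, and this applies to every change below.

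**Figure D1:**
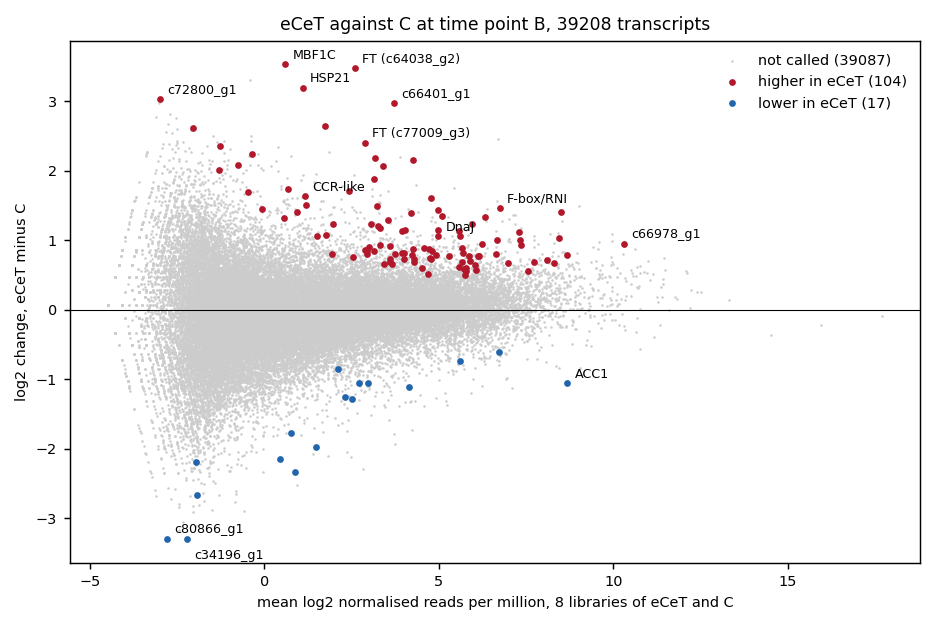
Each point is 1 of 39208 transcripts, with the mean log2 of CPM over the 4 eCeT and 4 C libraries of time point B on the x axis and the log2 change, eCeT minus C, on the y axis. The 104 called transcripts that rose are red and the 17 that fell are blue, and those called at a mean log2 value above 5 are mostly red.

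For 76 of the 104 transcripts that rose, all 4 eCeT plots lay above all 4 C plots, and for 15 of the 17 that fell they all lay below. Over all transcripts the groups did not overlap in 4.5% (2.17% above and 2.34% below). The called transcripts were chosen by the difference between these same plots, so a larger share without overlap follows from the choice. The plots did not contribute equally. Replicate 3 was the lowest eCeT plot for 87 of the 104 transcripts that rose and the highest for none of them, and its median difference from the mean of C was 0.55 on the log2 scale, against 1.14, 0.98 and 1.11 in eCeT replicates 1, 2 and 4. Among the control plots, replicate 3 was the lowest for 59 of the 104. The number of calls depended on which plots were used. It was 22, 20, 782 and 16 without eCeT replicates 1 to 4, and 361, 371, 31 and 24 without C replicates 1 to 4. Without both libraries in which c78052_g1 took its largest shares of the reads, eCeT replicate 4 and C replicate 3, an alternative chosen after seeing the data, 12 were called, 2 higher and 10 lower, of which 6 were among the 121. Of the 121 calls, 5 held without each of the 8 plots in turn: the DnaJ protein, cupin, cinnamoyl-CoA reductase-like and delta-aminolevulinic acid dehydratase transcripts described below (c88026_g1, c80455_g1, c72426_g1 and c84820_g1), and c79171_g2, which has no match and was picked once its values were known (a log2 change of 1.70 ± 0.31). Without TMM scaling (a scaling factor per library that allows for a few very abundant transcripts) 9 were called, 6 higher and 3 lower, and the median change of all transcripts moved by -0.08. Of the 5 that held without each plot, those with a match were not called without TMM scaling. Nor were they without eCeT replicate 4 and C replicate 3 together, or with only the 8 libraries compared. With the ring as a replicate block 218 were called, 176 higher and 42 lower, all 121 among them.

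**Figure D2:**
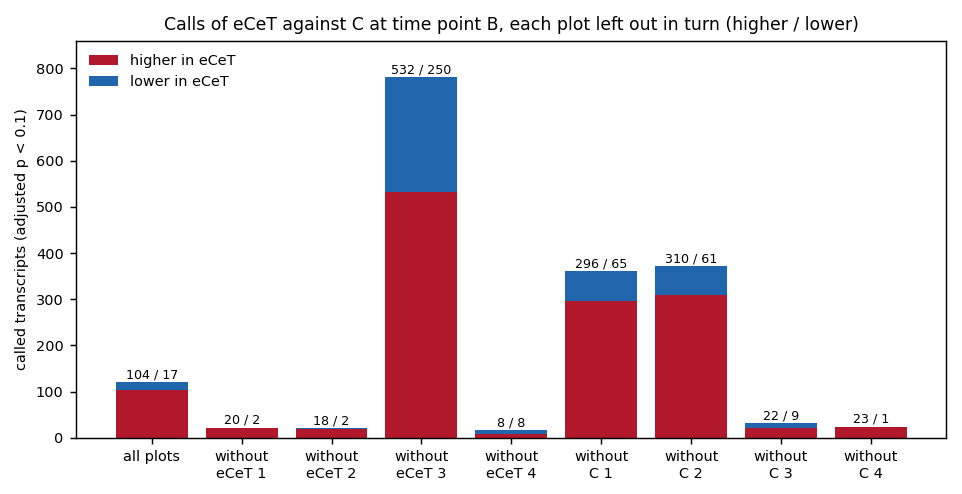
Bars show how many transcripts were called at an adjusted p under 0.1 for eCeT against C at time point B, with all 8 plots and with each of them left out, higher in eCeT in red and lower in blue, with both numbers above the bar. The count was 121 with all plots, 782 without eCeT replicate 3 and 16 without eCeT replicate 4.

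Of the 9 heat shock and chaperone transcripts in the list, 3 rose in eCeT (MBF1C, HSP21 and a DnaJ protein) and 6 were not called, where 0.265% of all transcripts were called higher. The values of all 9 changes were above 0 with all plots in use, with a median of 1.79 on the log2 scale, against -0.02 over all transcripts, and that of HSP90.1 did not keep its sign in every alternative. The study picked 8 of the 9 from these plots at time point A and the DnaJ protein from these very libraries, so the list is not independent evidence of its direction.

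MBF1C (c75211_g1) had 5.22, 6.36, 2.43 and 8.37 CPM in eCeT replicates 1 to 4, against 3.19, 0.439, 0 and 0.435 in C. The 3 C plots other than replicate 1 lay far below every eCeT plot, and C replicate 1 lay above eCeT replicate 3. The log2 change was 3.53 ± 0.66 (SE, limma, adjusted p = 0.0215), or 11.5-fold, and it was 2.51 without C replicate 3, whose count was 0, and 4.48 without C replicate 1. The call was lost without eCeT replicate 4 (adjusted p = 0.101).

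HSP21 (c78721_g1) had 2.95, 5.74, 3.13 and 31.8 CPM in eCeT, against 1.85, 0.351, 0.643 and 0.435 in C. The groups did not overlap, and eCeT replicate 4 held most of the reads. The log2 change was 3.19 ± 0.74 (limma, adjusted p = 0.0808), or 9.15-fold, and it was 2.43 without eCeT replicate 4 (adjusted p = 0.316). The call held only without eCeT replicate 3 or C replicate 1 and was lost when any other single plot was left out.

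The third called member, a DnaJ-domain co-chaperone (c88026_g1), changed less and more evenly. It had 52.6, 50.4, 33.9 and 49.0 CPM in eCeT, against 29.5, 26.0, 16.4 and 18.5 in C. Every eCeT plot lay above every C plot, and the log2 change was 1.06 ± 0.18 (limma, adjusted p = 0.0179). This call held without each of the 8 plots in turn.

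Of the 6 members that were not called, a cytosolic class II small heat shock protein (c85117_g1) had 33.8, 43.8, 30.7 and 44.6 CPM in eCeT, against 36.1, 11.6, 7.18 and 4.61 in C. Here C replicate 1 reached the eCeT plots and the other C plots did not. The log2 change was 1.79 ± 0.51 (limma, adjusted p = 0.159) with all plots and 2.37 (adjusted p = 0.0286) without C replicate 1. BAG6 (c95990_g1), a calmodulin-binding co-chaperone, had 10.0, 22.1, 10.4 and 24.6 in eCeT, against 4.59, 3.25, 6.10 and 4.96 in C, with no overlap and a log2 change of 1.73 ± 0.45 (adjusted p = 0.117). With the ring as a block it was called (limma, adjusted p = 0.0787). The pair of transcripts matched to HSP18.2, a cytosolic small heat shock protein, had changes of 2.42 ± 0.84 (c84367_g1) and 2.20 ± 0.62 (c76756_g2), with adjusted p-values of 0.272 and 0.153. HSP101 (c88586_g2) had a change of 1.15 ± 0.55 (adjusted p = 0.471). HSP90.1 (c69462_g3) had 0, 1, 1 and 13 reads in eCeT, against 5, 0, 0 and 0 in C, which leaves its direction undetermined: its value of 1.18 ± 1.14 turned to -0.090 without eCeT replicate 4 and C replicate 3.

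Within the groups, replicate 4 was the highest eCeT plot for 8 of the 9 members, all but the DnaJ protein, and replicate 1 was the highest C plot for 8 of the 9, all but BAG6. The summed level of the list, which the members with most reads dominate, was 137, 171, 103 and 273 CPM in eCeT replicates 1 to 4, against 102, 57.1, 38.1 and 35.2 in C. Without C replicate 1, 6 of the 9 were called higher, and without eCeT replicate 4 only the DnaJ protein was. With both eCeT replicate 4 and C replicate 3 left out, none of the 9 was called and 8 of the 9 changes were above 0. The median over the list stayed between 1.67 and 2.37 when any 1 of the 8 plots was left out.

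**Figure D3:**
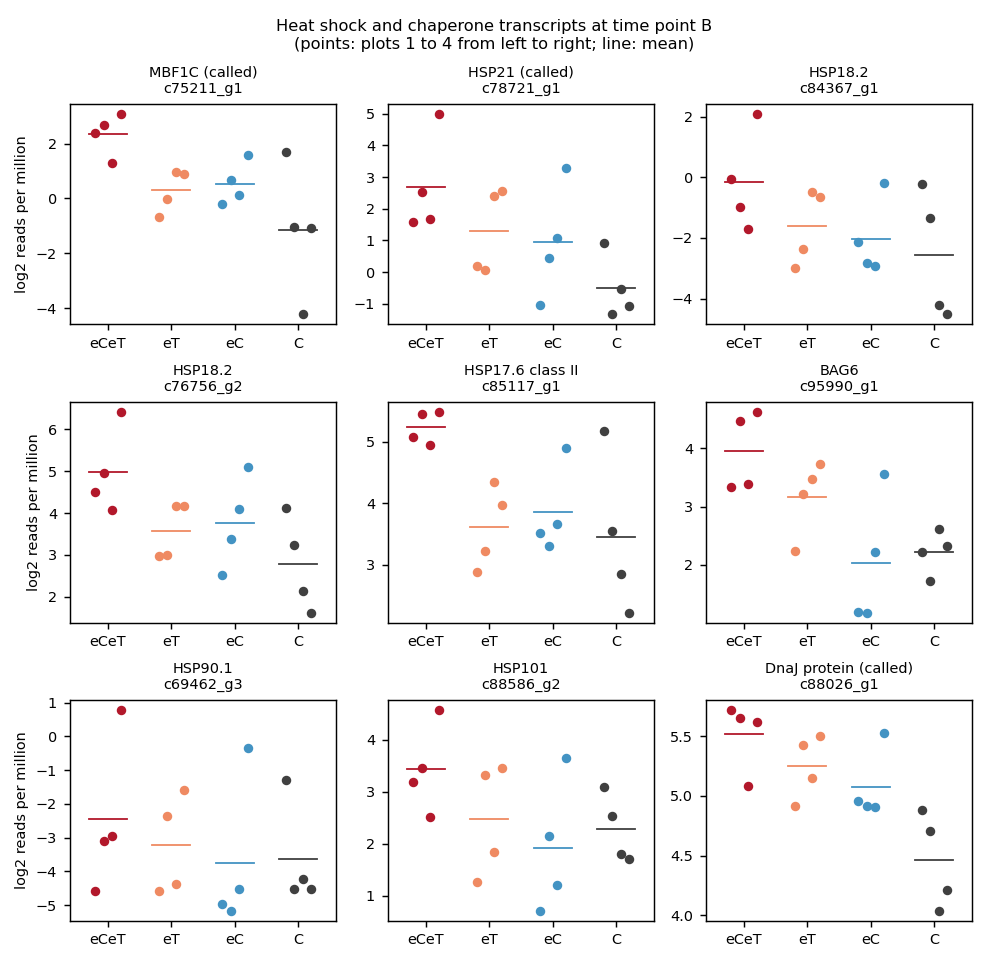
Each panel gives 1 of the 9 heat shock and chaperone transcripts, with the deposited log2 value of every library at time point B on the y axis, in the order eCeT, eT, eC and C from left to right; points are plots 1 to 4 and lines are means. The eCeT mean is the highest of the 4 treatments in all 9 panels, and in several the first C plot and the last eCeT plot stand above the rest of their group.

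Both transcripts matched to the FT family, called FT transcripts here, rose. The paper names matches to FT and to the closely related terminal flower 1 at time point B, and describes their roles in flowering as opposed. The family name therefore gives no direction for flowering. The first (c64038_g2) had 42.4, 20.6, 9.03 and 20.3 CPM in eCeT, against 0.222, 2.37, 4.28 and 3.91 in C. No plots overlapped, with C replicate 1 almost without reads (3 reads) and eCeT replicate 1 the highest (504 reads). The log2 change was 3.47 ± 0.65 (limma, adjusted p = 0.0215), or 11.1-fold, and it was 2.53 without C replicate 1. The call was lost without eCeT replicate 1 (adjusted p = 0.127). It held without eCeT replicate 4 and C replicate 3 together (adjusted p = 0.0704).

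The second FT transcript (c77009_g3) had 33.7, 17, 7.64 and 18.8 CPM in eCeT, against 0.593, 6.94, 4.18 and 5.65 in C. Replicate 1 was again the highest eCeT plot and the lowest C plot, and the groups did not overlap. The log2 change was 2.40 ± 0.54 (limma, adjusted p = 0.0687), or 5.29-fold, and 1.62 without C replicate 1. The call was lost without any one of eCeT replicates 1, 2 and 4 and C replicates 1 and 3, with adjusted p-values of up to 0.27. How reads that fit both transcripts were assigned is not given in the sources used here, so the split of reads between them is uncertain. CONSTANS-like 2 (c83306_g1) had 2.44, 3.14, 4.77 and 3.81 in eCeT, against 4.52, 4.13, 3.64 and 5.30 in C, with overlapping plots and a log2 change of -0.34 ± 0.46 (adjusted p = 0.85). The study listed the FT transcripts from these libraries, so that 2 of the 3 in the flowering time list were called, where 0.309% of all transcripts were, is not independent evidence.

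In the list of 11 plastid and photosynthesis transcripts, 5 rose, by 0.56 to 1.00 on the log2 scale, where 0.265% of all transcripts were called higher. None fell, where 0.0434% of all were called lower, and 6 were not called, 4 of them with values below 0. The list combines transcripts the study took from time point A with those it took from the libraries described here, and all 5 that rose were taken from these libraries, so they are not independent evidence. A transcript matched to delta-aminolevulinic acid dehydratase (c84820_g1) had 239, 213, 177 and 295 CPM in eCeT, against 124, 132, 94.3 and 106 in C. The lowest eCeT plot lay well above the highest C plot, and the log2 change of 1.00 ± 0.16 (limma, adjusted p = 0.0179), or 2.01-fold, was called without each of the 8 plots. A further transcript given the same match (c84530_g1) changed by 0.56 ± 0.13 (adjusted p = 0.082), a call that held without only eCeT replicate 3 or C replicate 2. The study's files print one and the same alignment for both, so which of them the match belongs to is uncertain.

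The transcripts given a fibrillin match had the same uncertainty of assignment. One (c76264_g1) had 84.0, 61.4, 53.6 and 84.3 CPM in eCeT, against 39.6, 48.3, 30.8 and 33.6 in C. It changed by 0.89 ± 0.17 (limma, adjusted p = 0.0293), and the other (c76202_g1) by 0.78 ± 0.16 (adjusted p = 0.0446), and in both no plots overlapped. A transcript matched to the plastid alkenal/one oxidoreductase AOR (c80513_g1), which removes reactive carbonyls, changed by 0.77 ± 0.18 (adjusted p = 0.0753). Ribulose-phosphate 3-epimerase (c81866_g1), an enzyme of the Calvin cycle, fell just outside the threshold at 0.66 ± 0.16 (adjusted p = 0.101). The call of c76264_g1 was lost without any one of eCeT replicates 1 and 4 and C replicates 3 and 4, and those of c76202_g1 and AOR without any one of the same 4 plots and eCeT replicate 2. None of the 5 calls held without both eCeT replicate 4 and C replicate 3, nor without TMM scaling.

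The 4 photosynthesis transcripts of the light reactions and of cyclic electron flow had values below 0, and none was called. NDH-dependent cyclic electron flow 1 (c84013_g1) had 27.3, 16.7, 37.2 and 8.62 CPM in eCeT, against 42.0, 56.7, 50.7 and 41.2 in C. Its plots did not overlap, and the log2 change was -1.27 ± 0.38 (limma, adjusted p = 0.188). With the ring as a block it was called (limma, adjusted p = 0.0912), and so it was without eCeT replicate 3 (adjusted p = 0.044). The photosystem I light harvesting gene (c82081_g1) had a change of -0.84 ± 0.33 (adjusted p = 0.346), chlororespiratory reduction 3 (c87432_g1) of -1.50 ± 0.72 (adjusted p = 0.468) and plastocyanin 1 (c66714_g1) of -1.43 ± 0.63 (adjusted p = 0.408). The lowest value among the eCeT plots was in replicate 4 for all but plastocyanin, which had its highest value there. What part the low values of this plot have in the other changes was not tested.

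In phenylpropanoid metabolism 1 of 5 transcripts rose, where 0.265% of all transcripts were called higher. Values were above 0 for 2 of the 5 and below 0 for 3, from -1.62 to 1.63 on the log2 scale, with a median of -0.002. The called transcript is c72426_g1, whose Arabidopsis match is an NAD(P)-binding protein related to cinnamoyl-CoA reductase, the entry to lignin synthesis. The study named this match among transcripts that differed in the libraries described here, so its call is not independent evidence. The transcript had 4.88, 3.61, 3.04 and 4.44 CPM in eCeT, against 0.815, 1.41, 1.07 and 1.91 in C, from 35 to 58 reads per eCeT plot and 10 to 22 per C plot. No plots overlapped, and the log2 change of 1.63 ± 0.29 (limma, adjusted p = 0.0179), or 3.10-fold, was called without each of the 8 plots. Without eCeT replicate 4 and C replicate 3 together the transcript was not called (limma, adjusted p = 0.182). The other 4 were not called, among them aldehyde dehydrogenase 2C4 (c79367_g1), which makes ferulic and sinapic acid, with 1, 3, 2 and 1 reads in eCeT, against 11, 3, 5 and 9 in C.

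A transcript matched to acetyl-CoA carboxylase 1 (c92877_g1), which makes malonyl-CoA from acetyl-CoA, was the only called transcript with an Arabidopsis match that fell. It had 258, 329.7, 323 and 241 CPM in eCeT, against 671, 469.5, 622 and 629 in C. The highest eCeT plot lay below the lowest C plot, and the log2 change was -1.06 ± 0.23 (limma, adjusted p = 0.0653), a 2.08-fold lower level. The call was lost without any one of eCeT replicates 1, 2 and 4 and C replicates 3 and 4, with adjusted p-values of up to 0.223, while the change stayed between -1.17 and -0.97.

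Of the 121 called transcripts, 18 have an Arabidopsis match in the study's files, 17 of them higher. Those not yet described include an RmlC-like cupin (c80455_g1), named for the barrel fold of its protein family. It had 16.1, 16.5, 11.9 and 13.4 CPM in eCeT, against 6.30, 8.43, 5.25 and 5.30 in C, and was 2.30-fold higher (limma, log2 SE 0.22, adjusted p = 0.0179), a call that held without each of the 8 plots. Without eCeT replicate 4 and C replicate 3 together the cupin was not called (limma, adjusted p = 0.170). Thioredoxin h5 (c85858_g1), a disulfide reductase with a role in immunity, had 15.7, 13.8, 13.5 and 17.2 in eCeT, against 6.15, 8.26, 6.32 and 6.09 in C. For both, every eCeT plot lay above every C plot, and replicate 2 was the highest C plot. The thioredoxin changed by 1.17 ± 0.22 (limma, adjusted p = 0.0215), a call lost without eCeT replicate 4 (adjusted p = 0.101).

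An F-box/RNI-like protein (c80536_g3), of a family whose members select proteins for degradation, had 205, 151, 113 and 292 CPM in eCeT, against 81.1, 114, 33.3 and 56.9 in C. Here eCeT replicate 3 and C replicate 2 met, and the log2 change was 1.47 ± 0.28 (limma, adjusted p = 0.0282). An aspartyl protease (c87028_g2) had 743, 621, 289 and 474 in eCeT, against 245, 271, 279.8 and 193 in C, a change of 1.03 ± 0.25 (adjusted p = 0.0917). A member of the ribosomal protein L18ae family (c79723_g2) changed by 0.82 ± 0.15 (adjusted p = 0.0179), and a DUF1677 protein of unknown function (c83204_g1) by 0.88 ± 0.20 (adjusted p = 0.0753). The F-box, protease, L18ae and DUF1677 calls were all lost without eCeT replicate 4, with adjusted p-values of 0.167, 0.201, 0.1 and 0.227. Only the L18ae call held without each of the other 7 plots. The other 3 were also lost without any one of eCeT replicate 1 and C replicates 3 and 4, and the protease and DUF1677 calls without eCeT replicate 2 as well.

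**Figure D4:**
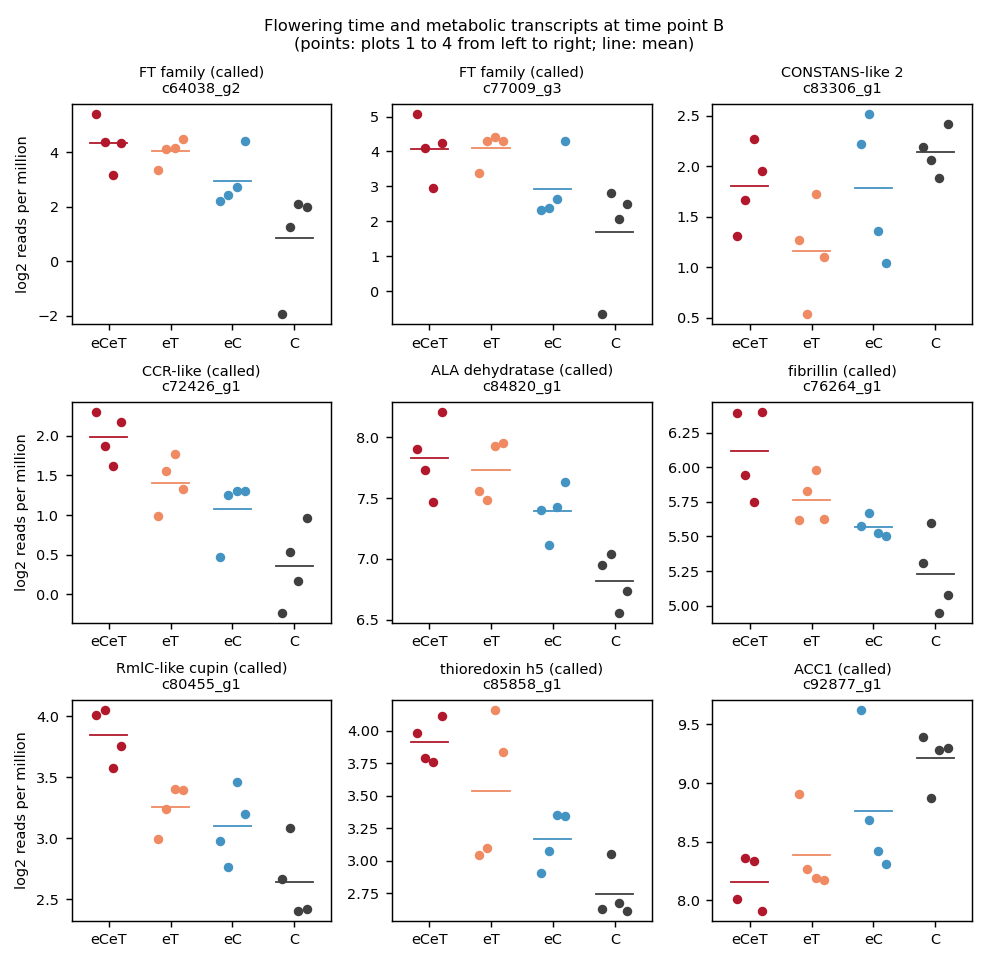
Each panel gives 1 transcript of flowering time or metabolism, with the deposited log2 value of every library at time point B on the y axis, in the order eCeT, eT, eC and C from left to right; points are plots 1 to 4 and lines are means. For the 8 called transcripts shown, no eCeT plot overlaps a C plot, with acetyl-CoA carboxylase 1 lower and the others higher in eCeT, while CONSTANS-like 2 overlaps.

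Names were available only for transcripts that the study listed, 139 of those tested from time point A and 26 from time point B. A called transcript without a match may simply not be listed, and may still have an Arabidopsis homolog. The other 103 called transcripts have no match at the threshold in the study's files. The groups did not overlap in 4.5% of all transcripts, and these 103 were called on the difference between the same plots. For 75 of them the plots of the groups did not overlap. After c72800_g1, which had few reads, the largest rise among these was that of c66401_g1, with 18.6, 71.2, 32.5 and 41.3 CPM in eCeT, against 4.08, 3.69, 6.10 and 5.04 in C. Even the lowest eCeT plot was far above the highest C plot, and the log2 change was 2.96 ± 0.60 (limma, adjusted p = 0.0392), or 7.81-fold. The call was lost without eCeT replicate 2 or 4 or C replicate 4. The transcript with the most reads among the called was c66978_g1, with 1590, 1815, 1401 and 2317 in eCeT, against 1234, 1189, 611 and 755 in C, a change of 0.95 ± 0.23 (adjusted p = 0.0889) that was lost without any one of eCeT replicates 1, 2 and 4 and C replicates 3 and 4. The next by reads with no match, c70502_g3, changed by 0.78 ± 0.19 (adjusted p = 0.0917) and was lost without the same 5 plots.

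Some called transcripts were near the limit of detection in 1 group. No read of c72800_g1 was found in C, against 3, 10, 2 and 2 in eCeT. With 3 reads over the 4 C plots as the limit, and the eCeT reads taken as counted, its level was at least 5.89-fold higher in eCeT. Conversely c80866_g1 had no read in eCeT, against 9, 7, 1 and 6 in C, and was at least 7.38-fold lower in eCeT by the same limit. The transcript c34196_g1 had 0, 0, 2 and 0 reads in eCeT, against 6, 5, 11 and 8 in C, a ratio of C over eCeT of 14.4 (95% exact interval 3.66 to 125). For c75895_g2 the reads were 1, 1, 1 and 0 in eCeT, against 11, 9, 3 and 8 in C, a ratio of C over eCeT of 9.95 (3.10 to 50.9). The intervals cover counting error only, and the limits allow for it only in the group without reads. With 5 reads added instead of 0.5, none of these 4 transcripts was called. The call of c72800_g1 was lost without eCeT replicate 2, that of c80866_g1 without any one of eCeT replicates 1, 2 and 4 and C replicate 4, and those of c34196_g1 and c75895_g2 without any one of these 4 plots and C replicate 3.

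Other transcripts that fell had enough reads for a level in both groups. The transcript c62597_g1 had 1.09, 0.236, 1.13 and 1.14 CPM in eCeT, against 4.74, 4.83, 1.93 and 6.09 in C, and c32048_g1 had 0.673, 0.236, 0.608 and 1.27 in eCeT, against 3.04, 3.07, 1.93 and 3.48 in C. In both cases every eCeT plot lay below every C plot. Their log2 changes were -2.33 ± 0.48 and -2.15 ± 0.44 (limma, adjusted p = 0.0444 and 0.0391), and both stayed called without eCeT replicate 4 and C replicate 3 together (adjusted p = 0.0704 for each). Without eCeT replicate 2 or C replicate 4 neither was called, nor was c32048_g1 without eCeT replicate 1.

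The lists of defence and secondary metabolism, all taken by the study from time point A, held no called transcript at time point B. None of 12 pathogenesis-related and cell wall transcripts, 14 receptor kinases and immune receptors, or 8 cytochrome P450s and terpene synthases passed the test, and 5 of these 34 had an unadjusted p under 0.05, a share to read beside the 10.3% of all transcripts. Their median log2 changes were -0.52, -0.63 and 0.00. At time point A, in other libraries of the same plots, 7, 11 and 5 of them were called lower in eCeT, where 0.964% of all transcripts were, and 0, 1 and 1 were called higher, where 0.436% were. The medians were -1.95, -2.24 and -2.47. The study listed these transcripts as differing between eCeT and C in those very libraries. The values at time point A are therefore not independent evidence, nor is their contrast with those at time point B. The EF-Tu receptor (c79995_g4), which senses a bacterial protein, had 8, 6, 4 and 0 reads in eCeT, against 23, 14, 7 and 9 in C at time point B, with a log2 change of -1.84 ± 0.70 (limma, adjusted p = 0.327). The eCeT effect at time point B minus that at A was 1.30 ± 0.99 for this transcript and did not pass the test.

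Over all transcripts, 549 (1.4%) were called for eCeT against C at time point A, 171 higher (0.436%) and 378 lower (0.964%). The transcripts that rose at time point B had mostly been higher at time point A already: all but 3 of the 104 were above 0 there, against 62.0% of all transcripts that were above 0 at time point B, and 26 of the 104 were called there too. Of the 17 that fell, 11 were below 0 at time point A, against 56.5% of all transcripts below 0 at time point B, and 1 was called. The libraries of the time points are separate but come from the same plots. No transcript passed the test of whether the effect of eCeT changed with time (B minus A, limma, 0 calls, 2333 or 5.95% at an unadjusted p under 0.05, and 0 with voom). HSP21 had log2 changes of 3.61 ± 0.74 after 30 days and 3.19 ± 0.74 after 50 days. For the first FT transcript (c64038_g2) the changes were 1.31 ± 0.65 after 30 days and 3.47 ± 0.65 after 50 days.

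The changes under each factor alone can be set beside those under both. At time point B the 104 transcripts that rose had a median log2 change against C of 0.94 in eCeT, 0.61 in eT and 0.47 in eC. The 3 comparisons share the plots of C, and the transcripts were chosen by the first of them, so these values are a description. The DnaJ protein changed by 1.06 ± 0.18 in eCeT, 0.79 ± 0.18 in eT and 0.62 ± 0.18 in eC. The first FT transcript (c64038_g2) had 3.47 ± 0.65 in eCeT, 3.18 ± 0.65 in eT and 2.08 ± 0.65 in eC. The class II small heat shock protein (c85117_g1) had 1.79 ± 0.51 in eCeT, 0.16 ± 0.51 in eT and 0.40 ± 0.51 in eC. For c66401_g1 these were 2.96 ± 0.60, 1.29 ± 0.60 and -0.09 ± 0.60.

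No transcript was called between eCeT and eT (limma, 0 calls, 2041 or 5.21% at an unadjusted p under 0.05) or between eCeT and eC (0 calls, 2201 or 5.61%), and voom also called none in either. The interaction of warming and [CO2], eCeT minus eT minus eC plus C, gave 0 calls and 2079 transcripts (5.3%) at an unadjusted p under 0.05, and 0 with voom. Failing these tests does not show that the treatments acted alike. For the second FT transcript (c77009_g3) the difference between eCeT and eT was -0.01 ± 0.54 on the log2 scale, for MBF1C it was 2.07 ± 0.66, and for the falling c62597_g1 and c32048_g1 it was -1.91 ± 0.48 and -1.95 ± 0.44. The interaction was 0.37 ± 0.93 for MBF1C and -0.99 ± 0.28 for the DUF1677 protein (c83204_g1).

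**Figure D5:**
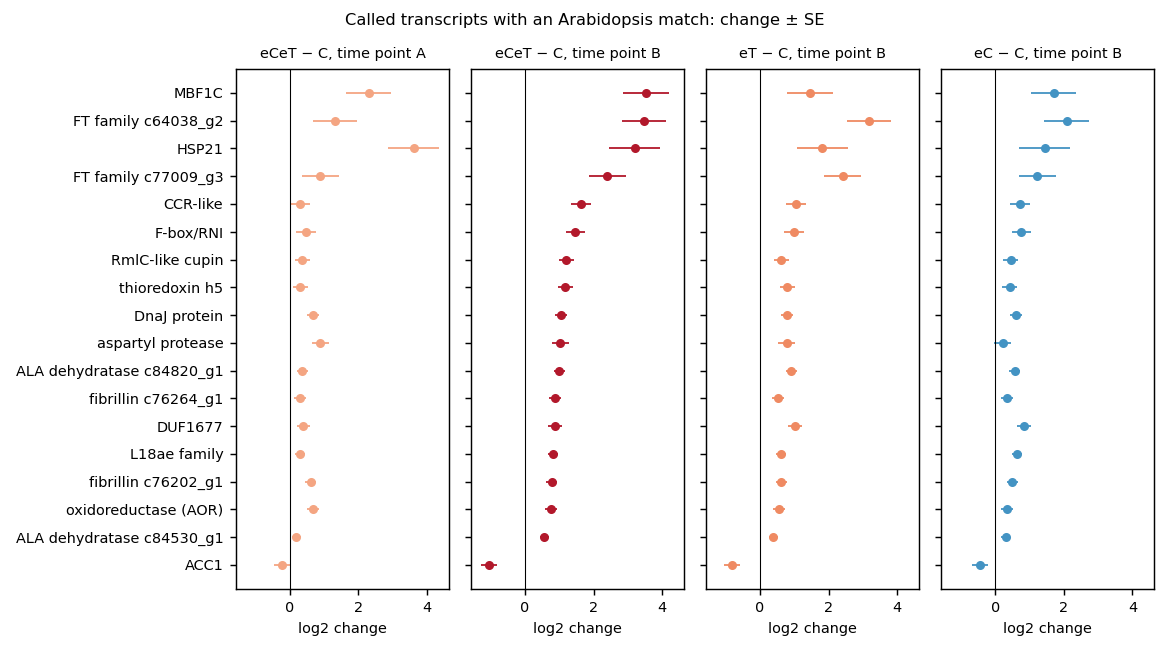
The 18 called transcripts with an Arabidopsis match are listed from the largest to the smallest change, and each panel shows the log2 change against C on the x axis with its standard error, for eCeT at time points A and B and for eT and eC at time point B. MBF1C, HSP21 and the FT transcripts have the largest changes, and acetyl-CoA carboxylase 1 is the only one below 0.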

How the data were processed

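The authors assembled the reads de novo with Trinity, kept transcripts with enough reads over the replicates of a treatment, and removed extreme outliers. They deposited log2 values for 39208 transcripts, computed as reads plus 0.5 over the TMM-scaled library size in units of 1e6. FPKM was deposited by the authors as well, for 45073 transcripts, of which 39117 are in both tables. The aligner and the counting program are not given in the sources used here. Base calling, per the submitters' processing notes, used CASAVA and bcl2fastq 1.8.4. Of the FPKM values, 29 columns were used, and 3 columns of the control were left out because their header lines contradict each other. The table then holds C replicates 1 and 2 only at time point B. In the log2 table the lowest value of a library is that of 0 reads, and the step above it gives whole reads (tolerance 0.02) in 100% of the values of at most 1000 reads, 96.2% of the table. CPM in the text are these reads per 1e6 of effective library size, with nothing added. Time point B is labelled as 50 days, and the sources disagree on its date.

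The deposited log2 values were tested with limma 3.58.1 (R 4.3.3). A single model covered the 8 groups and 32 libraries, with a trended prior variance. P-values were adjusted over all transcripts by Benjamini-Hochberg, with a threshold of 0.1. Tables were made in Python 3.11.15 with pandas 2.3.3, numpy 2.4.6 and scipy 1.17.1, and figures with matplotlib 3.10.9.

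The lists and transcripts were chosen with earlier results of these data known. Names come from the study's files (Arabidopsis match at E of at most 1e-04). The rule names every called transcript with a match, the 5 rising and 5 falling others with the largest change and no overlap, the 3 called with the most reads, the heat shock and flowering time lists and the 3 largest changes of each other list, every transcript of a contrast with 5 or fewer calls (there was none), and c78052_g1. Of these 54, those not described are given by counts. The photosystem I gene c82081_g1, a leaf marker, and c81866_g1 fall outside the rule and were chosen after their values were seen. Alternatives were other scalings, filters, pseudocounts, variance models and sets of libraries. Intervals are exact at 95%, and 3 reads were taken as the limit of a count of 0.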

Additional observations from a re-analysis of the deposited data

Results flagged for a closer look

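Dixon's ratio was computed for the log2 values of each of the 54 named transcripts in eCeT and in C at time point B, 108 groups of 4 plots, and 7 groups held a plot far from the other 3. Chance alone marks about 1 in 20 such groups. In eCeT, replicate 4 was the lowest plot for c75895_g2, with a log2 value of -3.98 against -3.08 to -2.94 in the others, and for the aspartyl protease c80798_g1, with 4.03 against 4.44 to 4.50. Replicate 2 of eCeT was the lowest for c62597_g1, with -1.86 against 0.18 to 0.27, and replicate 3 of eCeT for the DnaJ protein (c88026_g1), with 5.09 against 5.62 to 5.72. In C, replicate 1 was the highest plot for HSP90.1 (c69462_g3), with -1.29 against -4.52 to -4.22, where the others had no read. Replicate 2 of C was the highest for thioredoxin h5 (c85858_g1), with 3.05 against 2.62 to 2.67, and replicate 3 of C the lowest for c80866_g1, with -2.64 against -0.82 to -0.51, where it had 1 read. No named transcript differed between the time points in its eCeT effect by the test of that difference.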

How the results depend on the processing

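The number of calls for eCeT against C at time point B, 121 in the main analysis, changed with most choices. It was 536 with every library centred on its median, which moved the median change of all transcripts by 0.15, 191 with only transcripts whose mean reached 1 CPM in some group, 533 with array weights and 174 with quantile normalization. It was 9 without TMM scaling (6 higher and 3 lower, against 104 and 17), 78 with 5 reads added, 71 with voom, 24 without a variance trend, 102 with robust moderation, 17 with only the 16 libraries of time point B, 2 with only the 8 libraries compared and 41 at an adjusted p under 0.05. The FPKM table with a pseudocount of 1, which lacks 2 C plots, gave 5. Of the 121, 112 were also called with quantile normalization, 117 with centring, 115 with the filter, 68 with voom and all with array weights. Leaving out 1 plot at a time gave 16 to 782 calls, and leaving out eCeT replicate 4 and C replicate 3, chosen after seeing the data, gave 12. With the replicate number (the ring of the labels) as a block, 218 were called, all 121 among them. Of the named transcripts, BAG6 and c84013_g1 gained a call under this block and none lost one, and the other contrasts stayed at 0. Deviations of same-numbered eCeT and C plots from their group means correlated at 0.22, -0.08, 0.10 and 0.03. Whether the ring is a block of the field design is not given in the sources used here, and the main analysis is the one without it.

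Between eCeT and eT, where the main analysis called 0, array weights called 177, FPKM 1, the fit without eCeT replicate 4 and C replicate 3 called 11, and single omissions 0 to 10. Between eCeT and eC, also 0 in the main analysis, array weights called 61, centring, 5 reads added and FPKM called 1 each, the 16 libraries of time point B 2, and single omissions 0 to 3. The interaction gave 0 under every alternative run. The eCeT effect at time point B minus A gave 14 calls, all lower, without eCeT replicate 4 and C replicate 3, 0 to 1 under single omissions and 0 with the plot as a random effect. The cause of these differences was not tested, except that some alternatives use fewer plots.

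Over the 54 named transcripts no called change turned its direction under any alternative run. Among those not called, HSP90.1 (c69462_g3) turned to -0.090 without eCeT replicate 4 and C replicate 3, and CYP79B2 (c92299_g1) to -0.27 in the FPKM table. The change of c78052_g1 was 0.057 with centring and 0.29 in the FPKM table, and -0.61 to 0.35 with 1 plot left out. Depth limited the transcripts with few reads, for which a count of 0 in a group gives only a bound.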
